A study of Mus musculus with 12 samples.

Results

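The genes described here mark oligodendrocyte precursor cells (OPCs) and the steps by which these cells become oligodendrocytes. They are 10 genes, chosen by symbol and matched to the Ensembl identifiers of the count tables: Pdgfra, Cspg4, Olig1, Olig2, Sox10, Nkx2-2, Gpr17, Bcas1, Enpp6 and Myrf. All 10 were found among the 35697 genes listed for the comparison of traumatic brain injury (TBI) with sham surgery and among the 55637 listed for the comparison of zileuton with vehicle. All 10 also passed the filter on low counts in both, together with 19536 and 17363 genes in all. The RNA came from brain tissue of adult male C57BL/6J mice in 4 groups of 3 mice. Sham mice underwent the surgery without the impact, and TBI mice received a controlled cortical impact (CCI), and these 6 samples were sequenced in 2018 from tissue taken 7 days after surgery. The library names of these 6 samples carry the genotype label WT, and those of the 2022 samples do not. In 2022, tissue was sequenced from 3 further TBI mice, which the labels call only TBI and which are called vehicle here, and from 3 TBI mice given zileuton intraperitoneally in corn oil at 10 mg/kg per day. Vehicle is the paper's name for the control group of zileuton, and whether these control mice were injected is not given in the sources used here. Zileuton inhibits 5-lipoxygenase, the enzyme that starts leukotriene synthesis. The source labels of the vehicle samples give day 7 for all of them. Those of the zileuton samples give days 7, 8 and 9, whereas the library names of the zileuton samples give day 7 throughout. The columns of the 2022 tables are numbered 2, 3 and 6 in each group and cannot be tied to single labels, so these numbers name the replicates.

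OPCs persist throughout the adult brain, divide, and can differentiate into new oligodendrocytes, which wrap axons in myelin. The receptor PDGFRα and the proteoglycan NG2 mark the precursor. Its progeny pass through committed and newly formed stages that carry GPR17, BCAS1 and ENPP6, and myelin genes are switched on under the factor MYRF. OLIG1, OLIG2, SOX10 and NKX2-2 are transcription factors of the lineage, and OLIG2 and SOX10 stay on from the precursor to the mature cell. In bulk tissue, a larger number of cells of a type and more RNA per cell cannot be told apart.

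Total counts were 42929862 to 48684674 per sample in 2018 and 27845562 to 35453257 in 2022. The unit used below is CPM, counts per 1000000 of a library after scaling by the trimmed mean of M-values (TMM). As a check of the injury labels, the astrocyte filament gene Gfap rose from a mean of 188 to 2484 CPM after TBI. All 12 macrophage and microglia genes examined rose, Cd68 among them, with summed levels of 269 to 316 CPM in sham samples and 3114 to 5606 CPM after TBI. Of 12 neuronal genes 6 fell and none rose, and their summed level was 13728 to 14044 CPM in sham samples and 8538 to 11771 CPM after TBI. The part of these differences in the results below was not tested.

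The promoters of the member that did not pass the test after TBI, Pdgfra, and of the member with the largest change, Enpp6, are shown for comparison. Promoters from RefSeq on GRCm38.p6 were examined for 5 of the 10 members. The rest were left out, and not every one of them lacked an entry. Each sequence runs 5′ to 3′ over the 250 bases before the annotated start. Capitals mark matches on either strand to CANNTG, the E-box bound by basic helix-loop-helix factors such as OLIG2, and to ACAAAG or AACAAT, motifs of SOX factors.
Pdgfra, chr5:75152001-75152250, plus strand: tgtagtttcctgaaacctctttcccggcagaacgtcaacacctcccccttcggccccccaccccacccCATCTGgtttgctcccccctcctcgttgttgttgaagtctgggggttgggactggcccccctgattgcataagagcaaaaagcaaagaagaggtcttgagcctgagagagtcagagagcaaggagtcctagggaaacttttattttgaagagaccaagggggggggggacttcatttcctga
Enpp6, chr8:46986637-46986886, plus strand: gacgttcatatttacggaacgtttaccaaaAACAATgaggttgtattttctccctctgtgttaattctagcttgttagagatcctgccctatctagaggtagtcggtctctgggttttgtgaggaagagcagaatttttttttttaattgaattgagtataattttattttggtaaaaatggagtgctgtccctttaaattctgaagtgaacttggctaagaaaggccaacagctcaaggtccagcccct
The Pdgfra promoter held 1 E-box and no SOX motif, and that of Enpp6 held 1 AACAAT and no E-box. Among the other members examined, Nkx2-2 held 3 E-boxes, Olig2 held 1 AACAAT, and Cspg4 held none of these motifs. An E-box occurred in 66.2% of all 32851 promoters of this length, ACAAAG in 16.5% and AACAAT in 9.42%. A match is a description of letters and not a binding site.

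After TBI, 9 of the 10 genes rose, by 1.43-fold for Cspg4 to 2.96-fold for Enpp6, and Pdgfra alone did not pass the test. For each of the 9, every TBI sample lay above every sham sample. The adjusted p-value from edgeR's quasi-likelihood test was under 0.05 for 28% of all genes tested, 16.8% higher and 11.2% lower after TBI. Samples of TBI lay wholly above those of sham for 24.6% of all genes. The median log2 fold change of the 10 members was 0.86, against 0.02 over all genes. The count of 9 fell to 7 without sham replicate 1, to 8 without sham replicate 2 or 3, and to 6 with limma on log2(FPKM + 1) without a filter. Nothing in the labels says whether the 3 samples of a group came from separate days or surgeries, so p-values measure the spread between these samples.

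**Figure D1:**
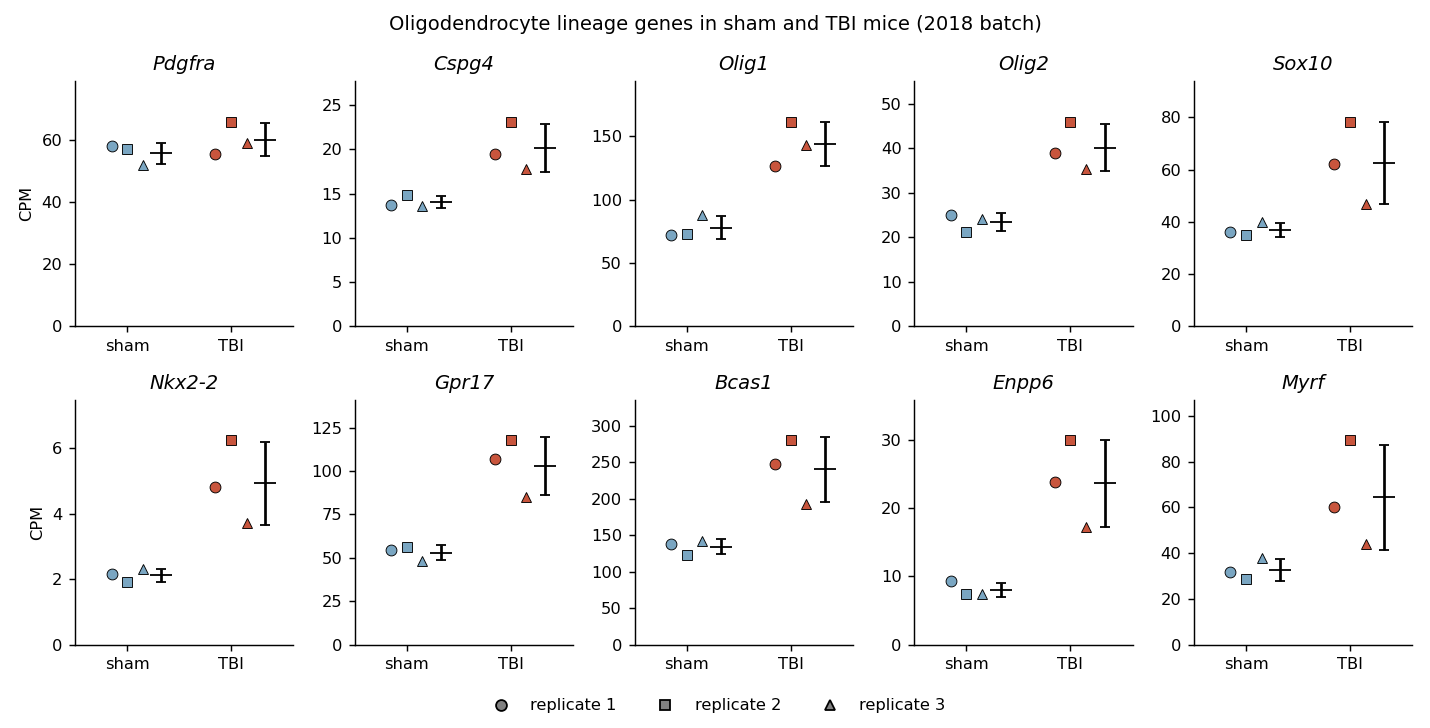
CPM of each gene in the 3 sham and 3 TBI samples, 1 panel per gene with a linear axis from 0. Symbols mark replicates and the black bar gives the mean and SD, and in every panel but that of Pdgfra the TBI points lie above all sham points.

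Pdgfra (ENSMUSG00000029231, chr5:75152292-75198215) encodes the receptor for platelet-derived growth factor that OPCs need to survive and divide. Its level was 57.95, 57.2 and 51.9 CPM in sham replicates 1, 2 and 3 and 55.5, 65.9 and 58.9 CPM in TBI replicates 1, 2 and 3. The groups overlapped, with TBI replicate 1 below sham replicates 1 and 2. The means were 55.7 ± 3.29 and 60.1 ± 5.29 CPM (SD, n = 3 each), and the log2 difference was 0.11 with a 95% interval of -0.09 to 0.31 (adjusted p = 0.394 from edgeR). A rise as large as that of Cspg4, the smallest of the other 9 at 0.52, lay outside this interval.

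Cspg4 (ENSMUSG00000032911, chr9:56865033-56899870) encodes NG2, the proteoglycan by which OPCs are often stained. It was at 13.7, 14.9 and 13.6 CPM in sham samples and at 19.5, 23.1 and 17.8 CPM after TBI. The lowest TBI sample stood above the highest sham sample by more than the range of the sham samples. The log2 difference was 0.52 with a 95% interval of 0.25 to 0.79 (adjusted p = 0.0124 from edgeR). The call did not hold without sham replicate 1 (adjusted p = 0.0524), without sham replicate 3 (0.0595) or with limma on log2(FPKM + 1) without a filter (0.119), and its adjusted p was between 0.00221 and 0.119 under the alternatives that keep all samples. Pdgfra is also expressed by fibroblasts and Cspg4 by pericytes. Of 12 fibroblast genes 8 rose, with summed levels of 207 to 215 CPM in sham samples and 376 to 975 CPM after TBI. Of 12 pericyte genes 5 rose, with summed levels of 164 to 189.5 CPM and 252 to 264 CPM, and the pericyte receptor gene Pdgfrb was at 15.2 and 19.3 CPM (adjusted p = 0.138). Their part in the levels of Pdgfra and Cspg4 was not tested.

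The transcription factor genes of the lineage rose together. Olig1 (ENSMUSG00000046160, chr16:91269772-91271933), which encodes a basic helix-loop-helix factor needed for myelin repair, was at 71.6, 73.1 and 88.1 CPM in sham samples and at 127, 161.5 and 143 CPM after TBI. All 3 TBI samples were far above the sham samples, of which replicate 3 was the highest. The log2 fold change was 0.89 (95% interval 0.64 to 1.15, adjusted p = 0.000588). Its neighbour Olig2 (ENSMUSG00000039830, chr16:91225457-91228677), whose product specifies the lineage, was at 24.9, 21.1 and 24.2 CPM in sham samples and at 39.0, 45.9 and 35.4 CPM after TBI. It rose by 0.78 on the log2 scale (95% interval 0.52 to 1.04, adjusted p = 0.00143).

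Sox10 (ENSMUSG00000033006, chr15:79154908-79165240) encodes the SOX factor that OPCs and oligodendrocytes share with Schwann cells. It was at 36.1, 34.9 and 39.9 CPM in sham samples and at 62.0, 78.3 and 46.9 CPM after TBI. The TBI samples were spread widely, with replicate 3 close to the sham range. The log2 fold change was 0.76 (95% interval 0.38 to 1.13, adjusted p = 0.00932), and it did not pass with limma on log2(FPKM + 1) without a filter (adjusted p = 0.0582, range over the alternatives 8.44e-05 to 0.0582). Of 7 Schwann cell genes 5 could be tested, 1 of which fell and none of which rose. The summed level of the 7 genes was 25.6 to 40.5 CPM in sham samples and 23.9 to 25.0 CPM after TBI.

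Nkx2-2 (ENSMUSG00000027434, chr2:147177546-147194243) encodes a homeodomain factor that rises as precursors begin to differentiate. It had the lowest counts of the 10 genes, 97, 88 and 109 in sham samples and 237, 304 and 160 after TBI, or 2.15, 1.90 and 2.29 CPM and 4.82, 6.24 and 3.71 CPM. Even the lowest TBI sample was well above the sham samples. The log2 fold change was 1.22 (95% interval 0.69 to 1.75, adjusted p = 0.00515), the second largest of the group. Nkx2-2 overlaps the opposite-strand genes Nkx2-2os and 6430503K07Rik, whose mean CPM over the 6 samples was 18.6% and 8.56% of its own. Whether counting used the strand is not given in the sources used here, so reads of either strand may have been counted for each of these genes.

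The 3 genes of the committed and newly formed stages rose as well. Gpr17 (ENSMUSG00000052229, chr18:31942997-31949636) encodes a G protein-coupled receptor of committed precursors that has been linked to uracil nucleotides and cysteinyl leukotrienes. It was at 54.6, 56.2 and 48.2 CPM in sham samples and at 107, 118 and 84.8 CPM after TBI. The groups were far apart, and the fold change was 1.94 (log2 0.96, 95% interval 0.68 to 1.24, adjusted p = 0.00061). Gpr17 overlaps Lims2 on the opposite strand. Lims2 rose from 8.48 to 17.0 CPM (log2 fold change 1.01, adjusted p = 0.00077), and its mean was 16.4% of that of Gpr17.

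Bcas1 (ENSMUSG00000013523, chr2:170346991-170427845), which marks oligodendrocytes that are beginning to myelinate, had the highest CPM of the 10 genes. It was at 138, 123 and 142 CPM in sham samples and at 248, 280 and 193 CPM after TBI. The rise was 0.84 on the log2 scale (95% interval 0.54 to 1.13, adjusted p = 0.00183).

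Enpp6 (ENSMUSG00000038173, chr8:46986887-47096762) encodes a choline-specific phosphodiesterase found in newly formed oligodendrocytes. It was at 9.28, 7.39 and 7.37 CPM in sham samples and at 23.9, 30.0 and 17.2 CPM after TBI. Every TBI sample was clearly above the highest sham sample. Its log2 fold change of 1.57 (95% interval 1.11 to 2.02, adjusted p = 0.000629) was the largest of the 10.

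Myrf (ENSMUSG00000036098, chr19:10208272-10240748), the factor that turns on myelin genes, was at 31.7, 28.6 and 37.9 CPM in sham samples and at 60.3, 89.2 and 43.9 CPM after TBI. TBI replicate 2 was more than 2 times as high as any sham sample, and TBI replicate 3 only a little above them. The log2 fold change was 0.98 (95% interval 0.46 to 1.50, adjusted p = 0.013). The call did not hold without sham replicate 1 (adjusted p = 0.0562), without sham replicate 2 (0.0608) or with limma on log2(FPKM + 1) without a filter (0.0868, range over the alternatives 4.59e-05 to 0.0868).

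The TBI samples kept nearly the same order in all of these genes. TBI replicate 2 was the highest of the 3 in 10 of 10 genes, and TBI replicate 3 was the lowest in 8 and replicate 1 in 2. Summed over the 10 genes, the level was 440, 418 and 456 CPM in sham replicates 1, 2 and 3 and 746, 898 and 645 CPM in TBI replicates 1, 2 and 3. TBI replicate 2 also had the lowest summed neuronal level, at 8538 CPM, and TBI replicate 3 the highest summed macrophage and microglia level, at 5606 CPM. With TBI replicate 1, 2 or 3 left out, 9 members were called each time.

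Because Pdgfra did not pass the test while the others rose, the level of each gene was also divided by that of Pdgfra in the same library. This ratio was chosen because of these values, so it restates them and is given as a description with no test, and it does not depend on the scaling of the libraries. All 9 ratios were higher in every TBI sample than in any sham sample. The difference of the mean log2 ratios ran from 0.40 for Cspg4 to 1.43 for Enpp6. The Enpp6 to Pdgfra ratio was 0.16, 0.129 and 0.142 in sham samples and 0.431, 0.455 and 0.293 after TBI. The Gpr17 to Pdgfra ratio was 0.943, 0.983 and 0.929 in sham samples and 1.93, 1.79 and 1.44 after TBI. These ratios of CPM are not corrected for gene length and compare samples, not the levels of the genes with each other. For Sox10 and Myrf the groups nearly touched, with ratios of up to 0.77 and 0.731 in sham samples and from 0.796 and 0.745 after TBI.

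**Figure D2:**
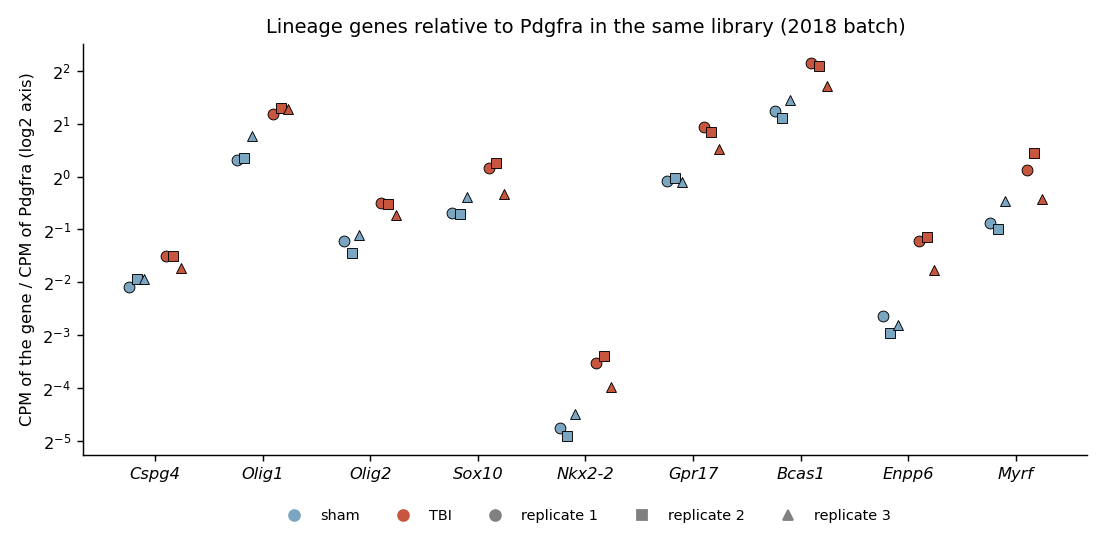
CPM of 9 genes divided by the CPM of Pdgfra in the same library, on a log2 axis, for the 3 sham and 3 TBI samples of 2018. Symbols mark replicates, and in each gene the 3 TBI points lie above the 3 sham points, least clearly for Sox10 and Myrf.

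Levels of different genes were compared per length, as FPKM. In sham samples Olig1 at 35.2 ± 4.26 and Bcas1 at 34.9 ± 2.54 FPKM were the highest (SD, n = 3 each) and overlapped, and Nkx2-2 was the lowest at 0.723 ± 0.0677 FPKM. Between them stood Sox10 at 11.9, Gpr17 at 10.0, Olig2 at 9.07, Pdgfra at 5.45, Myrf at 3.75, Enpp6 at 1.23 and Cspg4 at 1.16 FPKM, of which Gpr17 and Olig2 overlapped, as did Enpp6 and Cspg4. After TBI, Olig1 at 67.8 ± 9.19 and Bcas1 at 64.9 ± 12.9 FPKM still led. Mean Myrf, at 7.69 FPKM, then stood above mean Pdgfra, at 6.10 FPKM, although their samples overlapped, and every TBI sample of Enpp6 was above every TBI sample of Cspg4. Sox10 at 20.9, Gpr17 at 20.2 and Olig2 at 16.2 FPKM overlapped in that order. Nkx2-2 at 1.75 and Cspg4 at 1.72 FPKM were the lowest and overlapped.

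Other genes of the lineage were examined as lists. Of 20 further genes of OPCs, 7 rose and 2 fell, with a median log2 fold change of 0.20. Matn4, a matrix protein gene, rose from 6.61 to 17.4 CPM (log2 fold change 1.39, adjusted p = 9.28e-05), and C1ql1, a secreted C1q-like protein gene, from 4.94 to 11.7 CPM (1.24, adjusted p = 0.000329). Vcan, which encodes the proteoglycan versican, rose from 25.7 to 41.0 CPM (0.68, adjusted p = 0.00115). Megf11 and Lypd6 fell, with log2 differences of -0.44 (adjusted p = 0.0269) and -0.39 (adjusted p = 0.046), and were named after their values were seen. Ptprz1, Luzp2, Tnr and Xylt1, the most abundant of the list, had adjusted p-values of 0.0529, 0.0529, 0.623 and 0.0565 with log2 differences of 0.30, -0.35, -0.08 and -0.24. The list thus moved in both directions, and its summed level was 1009 to 1084 CPM in sham samples and 1020 to 1122 CPM after TBI.

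Of 18 genes of committed precursors and newly formed oligodendrocytes, 10 rose and none fell, with a median of 0.65. Lims2, which overlaps Gpr17 on the opposite strand, was among these 10, and reads of either strand may have been counted for both. Mpzl1 rose from 16.5 to 35.8 CPM (log2 fold change 1.11, adjusted p = 0.00011), Sirt2, a deacetylase gene of oligodendrocytes, from 137 to 227 CPM (0.73, adjusted p = 0.000595), and Itpr2, a calcium channel gene, from 24.5 to 39.3 CPM (0.68, adjusted p = 0.000793). Of 24 genes of myelin and mature oligodendrocytes, 14 rose, none fell, and all 24 differences were above 0, with a median of 0.67. Mbp, the myelin basic protein gene, rose from 2542 to 4062 CPM (0.68, adjusted p = 0.0186). The largest difference was in Klk6, a protease gene, from 3.84 to 36.7 CPM (3.25, adjusted p = 0.000152), followed by the lipid carrier gene Apod (1.99, adjusted p = 7.52e-06) and the transferrin gene Trf (1.71, adjusted p = 0.000161). The summed level of the 24 genes was 6885, 6519 and 7317 CPM in sham samples and 11611, 14417 and 8226 CPM after TBI, with the TBI samples in the same order as for the 10 members.

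**Figure D3:**
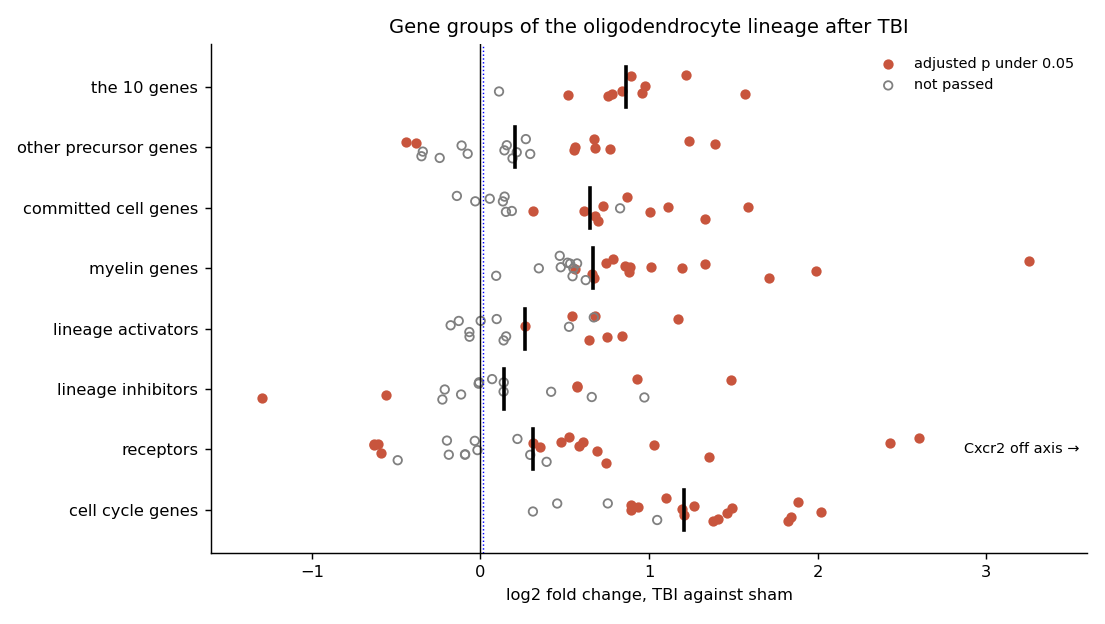
Log2 fold change of TBI against sham for each tested gene of 8 lists, where filled points passed an adjusted p of 0.05. Black bars give list medians and the dotted line the median of all genes, and the 10 genes and the committed, myelin and cell cycle lists lie mostly to the right while the lists of precursor genes and inhibitors spread to both sides (Cxcr2, with no counts in sham samples, lies beyond the axis).

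Of 17 tested genes for factors that promote the lineage, 7 rose and none fell, with a median of 0.26. These included Sox9 (log2 fold change 0.75, adjusted p = 0.00394), which astrocytes also express, Nkx6-2 (1.17, adjusted p = 0.0047), Tcf3 (0.54, adjusted p = 0.00144) and Hdac1 (0.64, adjusted p = 0.000893). Of 17 genes for factors that hold differentiation back, 4 rose and 2 fell, with a median of 0.14. Id3, an inhibitor of basic helix-loop-helix factors, rose from 26.4 to 73.6 CPM (1.48, adjusted p = 1.78e-05), whereas the Notch target Hes5 fell from 4.47 to 1.82 CPM (-1.30, adjusted p = 0.0021). Both lists are expressed in other cells of the brain too.

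Of 19 tested genes for ligands that act on the lineage, 7 rose and 1 fell. Pdgfa, the ligand of PDGFRα, was at 31.7 CPM in sham samples and 28.6 CPM after TBI (log2 fold change -0.15, adjusted p = 0.283). Igf1, a growth factor that favours oligodendrocyte survival, rose from 11.4 to 36.9 CPM (1.70, adjusted p = 0.0011), and Tgfb1 from 4.77 to 18.9 CPM (1.99, adjusted p = 6.84e-05). Of 27 genes for receptors, 13 rose and 4 fell. Cxcr4, the receptor of the chemokine CXCL12, rose from 2.35 to 14.3 CPM (2.60, adjusted p = 3.44e-05), and Cysltr1, a cysteinyl leukotriene receptor gene, from 0.721 to 3.89 CPM (2.43, adjusted p = 0.000156). Lingo1, which encodes an inhibitor of oligodendrocyte differentiation and is abundant in neurons, fell from 368 to 244 CPM (-0.59, adjusted p = 0.00603). Of 19 cell cycle genes 15 rose and none fell, with a median of 1.21, among them Mki67 from 5.27 to 13.7 CPM (1.38, adjusted p = 0.00303) and Top2a from 4.94 to 17.7 CPM (1.84, adjusted p = 0.00113). The summed cell cycle level was highest in TBI replicate 3, at 246 CPM, the TBI sample with the lowest summed level of the 10 members. In bulk tissue, the cells that carried these ligand, receptor and cell cycle transcripts cannot be told apart. The part of macrophages and microglia, whose summed level also rose, was not tested.

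In the comparison of zileuton with vehicle, none of the 10 genes reached an adjusted p of 0.05, nor did any gene of the table (0% of 17363), while DESeq2 gave 28 genes and limma on log2(TPM + 1) gave 4, as did edgeR without a filter, none of them members. At an unadjusted p of 0.05, edgeR gave 1186 genes, 6.83% of those tested, 2.93% higher and 3.9% lower with zileuton. A single member, Pdgfra, was among them. All zileuton samples lay above all vehicle samples in Pdgfra alone of the 10, and in 6.51% of all genes. The median log2 fold change of the 10 genes was 0.10, against 0.00 over all genes.

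Pdgfra was at 49.8, 48.2 and 57.6 CPM in vehicle replicates 2, 3 and 6 and at 61.8, 61.2 and 57.8 CPM in zileuton replicates 2, 3 and 6. The groups were separated only by the small step from vehicle replicate 6 to zileuton replicate 6. The log2 fold change was 0.22 (95% interval 0.02 to 0.42, adjusted p = 0.713 from edgeR), and the two-sided exact permutation test gave p = 0.1, its smallest possible value. The settings under which the unadjusted threshold was missed included library totals, length trends removed (log2 fold change 0.11), and leaving out vehicle replicate 2 (0.19) or 3 (0.17) or zileuton replicate 2 (0.20) or 3 (0.21).

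**Figure D4:**
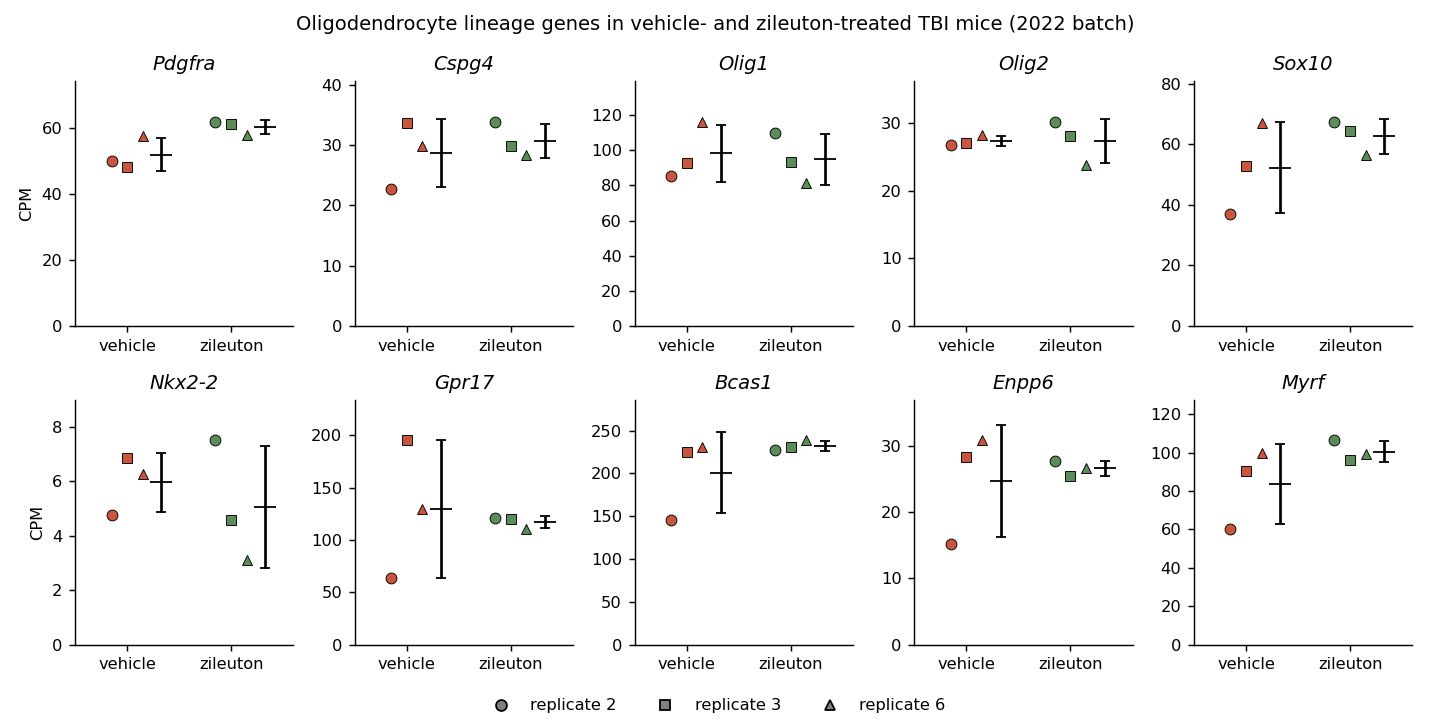
CPM of each gene in the 3 vehicle and 3 zileuton samples of 2022, 1 panel per gene with a linear axis from 0, symbols for replicates and black bars for the mean and SD. Vehicle replicate 2 is the lowest vehicle point in 9 of the 10 panels, and the groups overlap in every panel but that of Pdgfra.

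Vehicle replicate 2 was the lowest vehicle sample in 9 of the 10 genes. Summed over the 10 genes, the level was 511, 801 and 796 CPM in vehicle replicates 2, 3 and 6 and 793, 753 and 726 CPM in zileuton replicates 2, 3 and 6. The summed myelin level was also lowest in vehicle replicate 2, at 5985, 9992 and 12278 CPM in vehicle samples and 11773, 11306 and 10991 CPM in zileuton samples, while vehicle replicate 3, the highest for the 10 genes, was the next lowest for myelin. Macrophage and microglia genes had summed levels of 2751, 4101 and 5716 CPM and 3891, 2539 and 2297 CPM, lowest among vehicle samples in replicate 2 as well. The part of that sample's tissue in the comparison was not tested.

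Among the transcription factor genes, Olig1 was at 85.6, 92.8 and 116 CPM with vehicle and at 109.9, 93.5 and 81.2 CPM with zileuton, and Olig2 at 26.8, 27.2 and 28.2 CPM and at 30.2, 28.2 and 23.8 CPM. Both overlapped fully, with log2 fold changes of -0.05 (95% interval -0.38 to 0.28) and 0.00 (-0.24 to 0.24). Sox10 was at 37.0, 52.8 and 67.2 CPM and at 67.5, 64.3 and 56.4 CPM (log2 fold change 0.26, interval -0.18 to 0.70). Nkx2-2 was at 4.76, 6.86 and 6.28 CPM and at 7.50, 4.56 and 3.10 CPM (-0.24, interval -0.94 to 0.46).

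Gpr17 was spread widely among the vehicle samples, at 63.5, 195 and 129 CPM, and less with zileuton, at 121, 119 and 110.5 CPM. Its log2 fold change was -0.15 (interval -0.90 to 0.60), -0.47 without vehicle replicate 2 (unadjusted p under 0.05, adjusted p = 0.785 from edgeR) and 0.28 without vehicle replicate 3. Bcas1 was at 146, 225 and 230 CPM with vehicle and at 227, 231 and 239 CPM with zileuton (0.21, interval -0.16 to 0.58), and Enpp6 at 15.1, 28.3 and 30.9 CPM and at 27.7, 25.4 and 26.7 CPM (0.10, interval -0.43 to 0.63). Myrf was at 60.3, 90.6 and 100.1 CPM and at 106, 96.0 and 99.5 CPM (0.27, interval -0.12 to 0.65), and Cspg4 at 22.7, 33.7 and 29.8 CPM and at 33.8, 29.9 and 28.3 CPM (0.10, interval -0.25 to 0.44). In each of these 5 genes vehicle replicate 2 was the low sample, and the zileuton samples lay close together. Without vehicle replicate 6, Sox10 and Myrf joined Pdgfra at an unadjusted p under 0.05, with log2 fold changes of 0.48 and 0.41 (adjusted p = 0.839 for both by edgeR). Without zileuton replicate 2, Nkx2-2 reached it at a log2 fold change of -0.64 (adjusted p = 0.425).

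**Figure D5:**
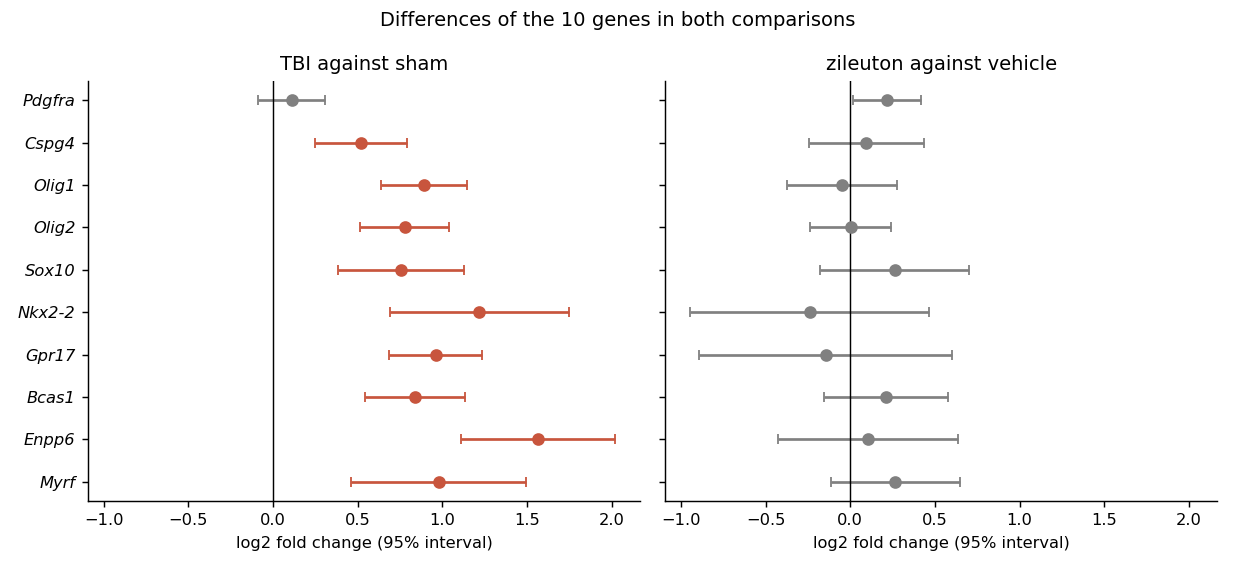
Log2 fold change and 95% interval of the 10 genes for TBI against sham and for zileuton against vehicle, on a common axis, with genes past an adjusted p of 0.05 in red. Apart from Pdgfra, the intervals for TBI lie above 0, and for zileuton all but that of Pdgfra span 0.

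Relative to Pdgfra in the same library, Olig2 was 0.538, 0.564 and 0.49 with vehicle and 0.489, 0.461 and 0.413 with zileuton, and was the only ratio of the 9 whose groups did not overlap. As TPM, Bcas1 was the highest of the 10 genes with vehicle at 159 ± 33.1 and with zileuton at 192 ± 3.67 (SD, n = 3 each), followed by Olig1 at 85.7 ± 10.5 and 86.7 ± 14.6. Nkx2-2 was the lowest, at 6.56 ± 1.11 and 6.55 ± 1.47 TPM. The mean order of the rest with vehicle was Gpr17, Sox10, Myrf, Olig2, Pdgfra, Enpp6 and Cspg4, in which Gpr17, Sox10 and Myrf overlapped their next neighbours and Cspg4 overlapped Nkx2-2, and with zileuton Sox10 stood above Gpr17 in the mean, also with overlap.

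No gene of the other lineage lists passed the adjusted threshold with zileuton. Of 20 OPC genes 1 had an unadjusted p under 0.05, Sema5a, a guidance molecule gene, at 34.0 and 42.9 CPM (log2 fold change 0.34). Of 18 genes of committed cells 2 did, Cemip2 (0.42) and Nfasc, a cell adhesion gene (0.40). Of 24 myelin genes none did, although 22 had differences above 0, with a median of 0.27 and with vehicle replicate 2 the lowest in the sum. Of 17 genes for inhibitors of differentiation 3 did, all lower with zileuton, Id1 (-0.65), Sox11 (-0.32) and Id2 (-0.17). Of 17 genes for promoting factors 3 did, with St18 (0.53) and Zeb2 (0.18) higher and Hdac2 (-0.30) lower. Of 26 receptor genes 1 did, Erbb3, a neuregulin receptor gene of the lineage (0.61). Of 20 ligand genes 2 did, Jag1 higher (0.30) and Spp1, also among the macrophage and microglia genes, lower (-1.20). Of 19 cell cycle genes none did, and 17 had differences below 0, with a median of -0.22. Each of the genes named in this comparison of lists had an adjusted p of 0.713 from edgeR, and the values in parentheses are log2 fold changes.

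As a description over the 6 samples of a batch, the gene outside the members whose log2 CPM followed the mean of the members' standardised levels most closely was Tmcc3 for sham and TBI, which rose from 36.1 to 64.2 CPM. The next were Tirap, from 1.89 to 3.36 CPM, and Qk, from 261 to 377 CPM. In the 2022 samples they were Gm867, Dynlrb2 and Mdfi. Pearson's r was 0.999, 0.998 and 0.998 for the former and 0.9995, 0.998 and 0.997 for the latter, and 402 and 200 other genes reached 0.95, so that these genes are a few among many. The 6 samples share libraries and group differences with the members, and no p is given.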

How the data were processed

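RNA from 12 mouse brain samples was analysed in 4 groups of 3. The authors deposited raw counts and FPKM per gene for 2018. For 2022 the values deposited were estimated counts, rounded here for the tests as the plan allowed, and TPM. The submitters' processing notes name HISAT2, featureCounts, Subread, DESeq2 and GRCm39 without versions or roles; strand use is not given in the sources used here. In 2018, 62.3% to 64.4% of counts from 1 to 20 were even numbers, and both reads of a pair may have been counted. No columns were left unused.

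Each batch was tested on its own with edgeR 4.0.16 in R 4.3.3 (TMM, filterByExpr, glmQLFit, glmQLFTest, Benjamini-Hochberg over all genes tested, threshold 0.05). Intervals of log2 fold changes use the moderated t distribution. Common biological coefficients of variation were 0.174 and 0.149. The fit was tested on simulated counts. Alternatives were DESeq2 1.42.0 and its size factors, library totals, no filter, 10 counts in every sample, limma 3.58.1 on log2(value + 1) with and without a mean minimum of 0.5 and on log2(value + 0.1), a replicate block, removed length trends, halved counts (2018) and leaving out each sample; where that left 2 samples the spread was pooled. Single values were compared with exact permutation tests. Gene positions are from GENCODE M21 on GRCm38, a build the authors need not have used, and promoters from RefSeq. Figures were drawn with matplotlib 3.10.9.

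Named genes were the 10 members, up to 4 of the most abundant and up to 4 with the smallest p of each other list, Gfap and Cd68, and the 3 genes most like the members. The members and lists were chosen with earlier results of these data known. Megf11, Lypd6 and the ratios to Pdgfra were chosen after the values were seen. Some genes of the lists are not reported here by name.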

Additional observations from a re-analysis of the deposited data

How the results depend on the processing

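For TBI against sham, 9 members were called under every alternative that keeps all samples, except limma on log2(value + 1) without a filter, with 6. Under these alternatives, 3713 genes of the whole table (limma without a filter) to 6225 (DESeq2) were called. With 1 sample left out, 7 to 9 members and 3848 to 4956 genes were called. For zileuton against vehicle the 1 member at an unadjusted p under 0.05 became 0 with library totals, with the replicate block and with length trends removed, and 0 to 3 with 1 sample left out. The genes at that p numbered 778 with length trends removed and 689 to 1909 with 1 sample left out, 689 without zileuton replicate 3, 777 without zileuton replicate 6 and 1909 without zileuton replicate 2. The cause was not tested.

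Small differences with zileuton changed sign. Olig2 was at -0.007 with library totals, -0.003 without a filter and -0.004 with the replicate block. Olig1 was at 0.009 with limma on log2(value + 1), on log2(value + 0.1) and without a filter, and Gpr17 at 0.045, 0.050 and 0.045. With 1 sample left out, log2 fold changes ran from -0.048 to 0.227 for Cspg4, -0.168 to 0.087 for Olig1, -0.072 to 0.097 for Olig2, -0.472 to 0.280 for Gpr17, -0.152 to 0.289 for Enpp6 and -0.638 to 0.018 for Nkx2-2.

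Same-numbered samples did not deviate together, with correlations of -0.023, -0.094 and -0.033 for sham and TBI and -0.280, 0.063 and -0.282 for vehicle and zileuton, so the numbers were not taken as pairs. With the replicate block 9 members and 4337 genes were called for TBI, and 729 genes had an unadjusted p under 0.05 for zileuton.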
